A study of Mus musculus with 6 samples.

Results

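The platelet-derived growth factor (PDGF) system and the KIT system were described through 8 genes, of 53465 in the table of gene counts. They were the PDGF ligand genes Pdgfa, Pdgfb, Pdgfc and Pdgfd, the PDGF receptor genes Pdgfra and Pdgfrb, the receptor gene Kit and its ligand gene Kitl. The genes were chosen by name, as further targets of the tyrosine kinase inhibitor (TKI) axitinib and the ligands of those targets. Their measured values were not the rule of choice, but earlier results of these data were known. RNA was sequenced from mouse 4T1 mammary carcinoma cells in 2 lines with 3 libraries each, the parental line (P) and an axitinib-resistant line (AxR). AxR cells were obtained from a metastatic lesion that arose after surgery in Balb/c mice given 100 mg/kg/day axitinib. They were then kept in 0.5 μM axitinib, by the labels for at least 2 months, while the paper describes P cells as vehicle-treated. Both lines grew in RPMI medium with 5% FBS, and the growth label names 0.5 μM axitinib for all 6 samples, although the treatment labels give it for AxR only. AxR is 1 line from 1 selection, and the labels leave unsaid whether its replicates, or those of P, were cultured separately, so p-values measure the spread between these libraries, which may be technical. Drug exposure, passage through a mouse and line identity therefore cannot be told apart.

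PDGFs are secreted dimers that bind the receptor tyrosine kinases PDGFRα and PDGFRβ, which pair and phosphorylate each other and recruit adaptors, PI3 kinase, phospholipase C gamma and Src kinases. PDGF-A and PDGF-B are cut by proprotein convertases on their way out of the cell, whereas PDGF-C and PDGF-D are secreted in a latent form with a CUB domain that extracellular proteases remove. PDGF-A and PDGF-C act through PDGFRα, PDGF-B binds both receptors, and PDGF-D binds mainly PDGFRβ. KIT is a receptor of the same class, known from mast cells, blood stem cells, melanocytes and germ cells, and stem cell factor, encoded by Kitl, is its ligand. In carcinomas the PDGF receptors are best known from fibroblasts and pericytes, and the ligands from the tumor cells.

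Levels are given in CPM as edgeR computes it, a gene's estimated counts relative to the upper quartile normalized library size. Library totals lay between 15495260 and 17294525 estimated counts, and 3 counts in a library, taken as the floor for detection, corresponded to between 0.171 and 0.196 CPM. Between libraries of a line, chi-square divided by its degrees of freedom was 4.75 to 17.9, more than counting noise gives, and each was used as its own sample. The first principal component, with 84.3% of the variance of log2 CPM, separated the lines. Among markers of 4T1 cells' tissue of origin, Epcam had a mean of 75.4 CPM and Krt18 of 676 CPM in P cells, with Cdh1, Krt7 and Krt8 between them, whereas Krt19 had 8.88 CPM, Krt14 had 1.09 CPM and Krt5 was at 0 in all libraries.

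Of the 8 genes, 5 had enough counts to be tested. Pdgfc was higher in AxR than in P cells, and Pdgfa, Pdgfb, Pdgfra and Kitl were lower. All 5 passed an adjusted p under 0.05 (edgeR's quasi-likelihood test, adjusted by Benjamini-Hochberg over all 13550 genes tested), as did 63.5% of all genes tested, with 32.8% higher and 30.8% lower. The median log2 fold change of the 5 was -0.62, against 0.0058 for all genes tested. Pdgfd and Kit had no count in any library, and Pdgfrb had a few counts in AxR libraries only. The libraries of the lines did not overlap for any of the 5, as for 68.3% of all genes tested. A lower level in bulk RNA cannot tell fewer expressing cells from less RNA per cell, for any of these genes.

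**Figure D1:**
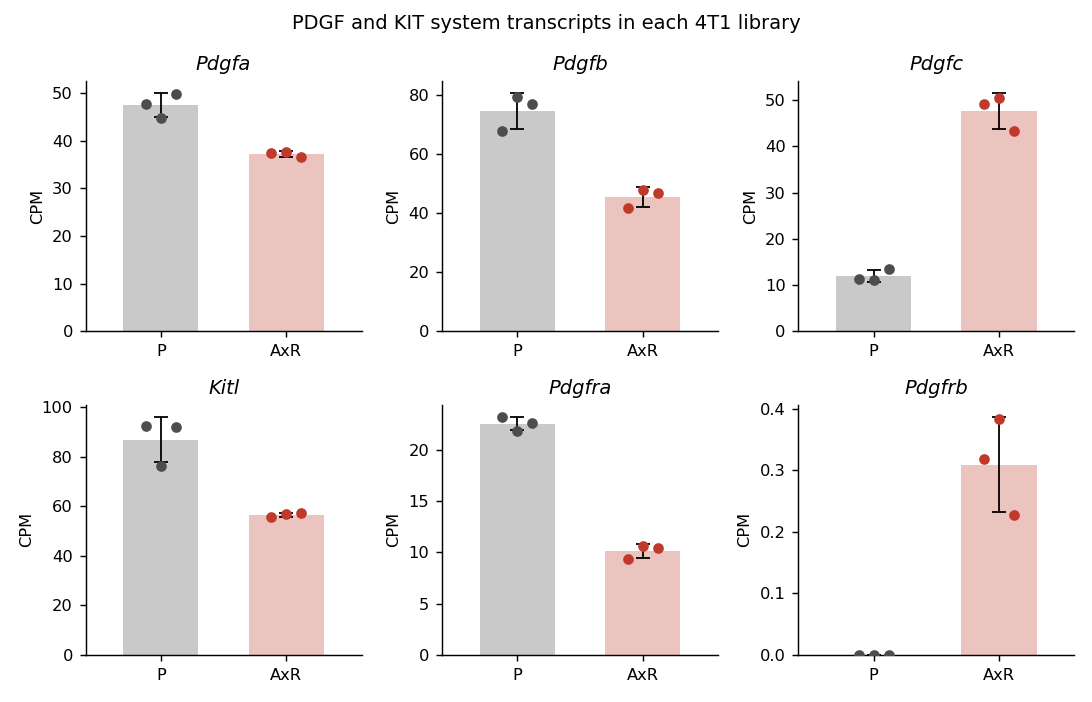
Level of each PDGF and KIT system gene in the 3 P and 3 AxR libraries, in CPM; points are libraries, bars are line means and error bars are SD (n = 3), and Pdgfd and Kit, at 0, are not drawn. The libraries of the lines do not overlap for Pdgfa, Pdgfb, Pdgfc, Pdgfra or Kitl, and Pdgfc is the only gene of these 5 with AxR above P.

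Pdgfc encodes PDGF-C, a latent ligand of PDGFRα (ENSMUSG00000028019.9, GRCm38 chr3:81036416-81214040, plus strand). It had 11.4, 11.1 and 13.4 CPM in P replicates 1 to 3 and 49.2, 50.6 and 43.3 CPM in AxR replicates 1 to 3. Each AxR library was more than 3 times the highest P library. The mean rose 4.00-fold, from 11.9 ± 1.24 to 47.7 ± 3.87 CPM (SD, n = 3 per line). The log2 fold change was 2.00 (standard error 0.091, edgeR adjusted p = 8.2e-11), above that of 97.2% of the genes tested. Chromosome 3 had a median log2 fold change of 0.32 over its 717 genes tested. The 20 tested genes nearest to Pdgfc had a median of 0.33, and 11 of them were called higher, but none rose as far as Pdgfc, which lay 1.67 above that median. Gm16000, on the opposite strand of the same locus, reached at most 4.04 counts in a library.

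The 250 bases before the start of Pdgfc are shown because it was the only member called higher (RefSeq start, GRCm38.p6 chr3:81036166-81036415, plus strand). They are printed with those before Pdgfra (chr5:75152001-75152250, plus strand), the only receptor gene among the members that was tested, and capitals mark a motif found by letters.
Pdgfc: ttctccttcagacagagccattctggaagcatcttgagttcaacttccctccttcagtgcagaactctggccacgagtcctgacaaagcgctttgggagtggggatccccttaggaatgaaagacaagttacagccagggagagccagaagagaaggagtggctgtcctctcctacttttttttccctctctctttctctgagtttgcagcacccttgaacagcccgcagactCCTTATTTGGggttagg
Pdgfra: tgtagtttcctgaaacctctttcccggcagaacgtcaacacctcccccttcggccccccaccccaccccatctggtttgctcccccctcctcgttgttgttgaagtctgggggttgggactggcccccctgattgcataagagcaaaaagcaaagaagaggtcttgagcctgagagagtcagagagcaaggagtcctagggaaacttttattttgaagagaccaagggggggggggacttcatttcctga
The capitals in the Pdgfc window are a CArG box, the motif bound by serum response factor, 17 to 8 bases before the start. Of all 32851 windows of this length in the RefSeq table, 1.47% held a CArG box on either strand. No AP-1 site (TGANTCA, in 6.75% of windows), STAT site (TTCNNNGAA, 7.02%), EGR site (GCGNGGGCG, 4.7%), GC box (GGGCGG, 32.7%), TATA box (TATAAA, 12.4%) or CCAAT box (33.8%) was found in either window, and the Pdgfra window held no CArG box. The CArG box and the EGR site were added to the search after the sequences had been read. The same motifs were searched in the windows of 6 members. Those of Pdgfa, Kit and Kitl held GC boxes and those of Pdgfd and Kitl a TATA box, and only that of Pdgfc held a CArG box. The Pdgfc window was 50.8% G and C with 3 CpG and the Pdgfra window 54.4% with 4 CpG, where the median window had 52.4% and 6 CpG. These matches are letters in a window and were not tested as binding sites.

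Pdgfb encodes PDGF-B, the ligand of both receptors (ENSMUSG00000000489.6, chr15:79995874-80014977, minus strand). Its libraries held 67.7, 79.1 and 76.9 CPM in P cells and 41.7, 47.9 and 46.8 CPM in AxR cells. The highest AxR library lay well below the lowest P library. The mean fell from 74.6 ± 6.04 to 45.4 ± 3.32 CPM (SD, n = 3 per line), to 61.0% of the P level. The log2 fold change was -0.71 (standard error 0.072, edgeR adjusted p = 5.5e-07). Its 20 nearest tested genes had a median of 0.096, and 1 of them was as low as Pdgfb or lower.

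Pdgfa encodes PDGF-A, a ligand of PDGFRα (ENSMUSG00000025856.15, chr5:138976014-138997370, minus strand). P libraries held 47.8, 44.9 and 49.9 CPM, and AxR libraries 37.4, 37.7 and 36.6 CPM. The fall was the smallest of the called members, from 47.5 ± 2.55 to 37.2 ± 0.576 CPM (SD, n = 3 per line) and to 78.4% of the P level, but the lines did not overlap. The log2 fold change was -0.35 (standard error 0.065, edgeR adjusted p = 0.000218), and 23.5% of all genes tested had a lower value. Its 20 nearest tested genes had a median of -0.064, and 5 of them were as low as Pdgfa or lower. The antisense gene 6330403L08Rik overlaps Pdgfa on the opposite strand and went the other way, from a mean of 116 counts in P to 216 in AxR libraries. The libraries were made with a stranded kit, but the strand setting of the counting is not given in the sources used here, so reads of the overlap could have been assigned to either gene.

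Pdgfd, whose product PDGF-D is the second latent ligand (ENSMUSG00000032006.15, chr9:6168584-6378850, plus strand), had 0 counts in all 6 libraries. Over the 3 libraries of a line, a floor of 3 counts corresponded to 0.0611 CPM in P and 0.0612 CPM in AxR cells. The upper end of the exact Poisson 95% interval for 0 counts was 0.0751 CPM in P and 0.0753 CPM in AxR cells, for counting error only.

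Compared per length of exon, the 3 detected ligand genes lay closer to each other in AxR than in P cells. In P cells Pdgfb had 17.9 ± 1.45, Pdgfa 15.2 ± 0.818 and Pdgfc 2.35 ± 0.244 CPM per kb (SD, n = 3). In AxR cells Pdgfa had 11.9 ± 0.185, Pdgfb 10.9 ± 0.798 and Pdgfc 9.37 ± 0.760 CPM per kb. Of the summed ligand level per kb, Pdgfc made up 6.60%, 6.12% and 7.08% in P replicates 1 to 3 and 30.5%, 29.6% and 27.0% in AxR replicates 1 to 3. The share of Pdgfb went from 50.4% ± 2.73 to 33.9% ± 2.09 and that of Pdgfa from 43.0% ± 2.43 to 37.1% ± 0.929. Each of these shares gave an exact 2-sided permutation p of 0.1, the smallest that 3 against 3 libraries can give. The summed ligand level itself was 35.5 ± 1.65 CPM per kb in P and 32.2 ± 1.13 in AxR cells (SD, n = 3), and its libraries did not overlap (exact permutation p of 0.1). These are shares of RNA and not of secreted protein.

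**Figure D2:**
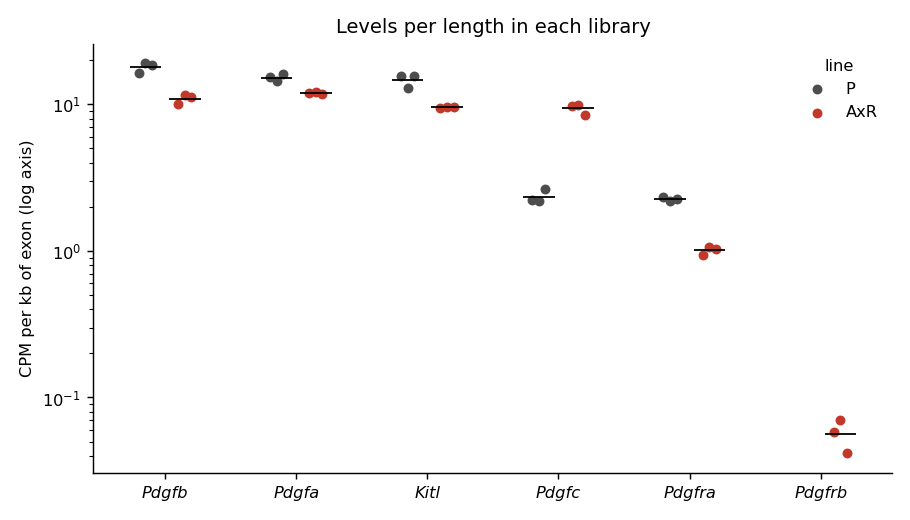
Level per kb of exon in each P and AxR library for the members with counts, on a log axis in CPM per kb; points are libraries, lines are means, and values at 0 are not drawn. Pdgfc moves from the level of Pdgfra in P cells to the level of Kitl in AxR cells, and Pdgfra stays lowest of the 5 genes tested.

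Pdgfra encodes PDGFRα (ENSMUSG00000029231.15, chr5:75152292-75198215, plus strand), and it was the only receptor gene of the members with enough counts to be tested. It had 23.2, 21.9 and 22.6 CPM in P replicates 1 to 3 and 9.40, 10.6 and 10.4 CPM in AxR replicates 1 to 3. The lines were far apart relative to their spread. The means were 22.6 ± 0.669 and 10.1 ± 0.641 CPM (SD, n = 3), so that AxR cells held 44.9% of the P level. The log2 fold change was -1.15 (standard error 0.086, edgeR adjusted p = 1.99e-08), and 3.80% of the genes tested had a lower value. The 2-sided exact permutation p of 0.1 for a single gene is the smallest that 3 against 3 libraries allow, and all 5 tested members had it. On chromosome 5 the median over 903 genes tested was -0.16, and the 20 nearest tested genes had a median of -0.19, with none as low as Pdgfra.

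Pdgfrb encodes PDGFRβ (ENSMUSG00000024620.11, chr18:61045150-61085061, plus strand). It had 0 counts in each P library and 5, 6 and 4 counts in AxR replicates 1 to 3, too few for the filter of the main test. Summed over the line, 15 counts in AxR cells corresponded to 0.306 CPM (exact Poisson 95% interval 0.171 to 0.505 CPM, counting error only). This measured level was 5.01 times the limit of 3 counts taken for 0 in P cells, before counting error in AxR cells. The lower end of the AxR interval was 2.80 times the same limit and 2.28 times the upper end of the exact Poisson interval of P. Without a filter on low counts, Pdgfrb entered the fit through its AxR counts alone. Its adjusted p there, from edgeR over 24736 genes, was 0.000731 and adds no support beyond these counts. The unfiltered edgeR fit also gave Pdgfc an adjusted p of 1.67e-118, against 8.2e-11 in the main test. The 318 genes tested on chromosome 18 had a median log2 fold change of 0.50 and 86.2% of them lay above 0. Of the 20 tested genes nearest to Pdgfrb, 16 were called higher, with a median of 0.47. Per kb, the AxR level of Pdgfrb was 0.0565 ± 0.0142 CPM (SD, n = 3), against 1.01 ± 0.0639 for Pdgfra.

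Kit (ENSMUSG00000005672.12, chr5:75574916-75656722, plus strand) lies between Pdgfra and Kdr, the gene of VEGF receptor 2, on chromosome 5. The stretch from the end of Pdgfra to the start of Kit is 376.701 kb, and that from the end of Kit to the nearer end of Kdr is 276.105 kb. Kit had 0 counts in all 6 libraries, as did Kdr, and none of the 13 genes annotated between Pdgfra and Kdr had a count in any library. Kit was the only protein-coding gene among these 13. The nearest tested protein-coding genes outside Pdgfra and Kdr were Chic2, with a log2 fold change of -0.63 (edgeR adjusted p = 4.59e-07), and Srd5a3, with 0.18 (edgeR adjusted p = 0.0719). Lnx1, farther out on the Pdgfra side, rose by 0.61 on the log2 scale, so genes around Pdgfra did not all go the same way.

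**Figure D3:**
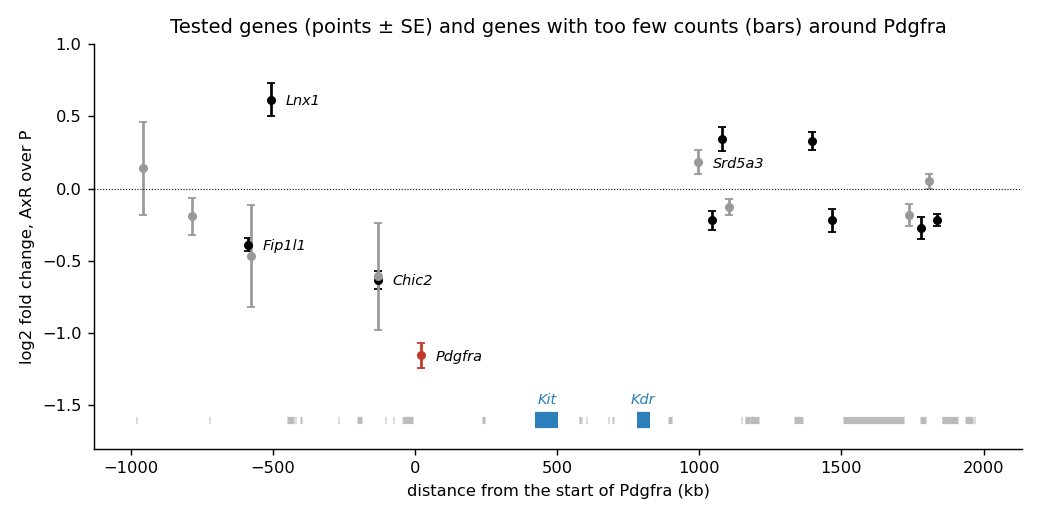
Log2 fold change, AxR over P, of tested genes around Pdgfra against their distance from the start of Pdgfra in kb; error bars are standard errors, black points and red Pdgfra passed an adjusted p under 0.05, grey points did not, and bars at the base mark genes with too few counts to test. Pdgfra lies below its tested neighbours, and the stretch with Kit and Kdr holds no tested gene.

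Kitl encodes stem cell factor (ENSMUSG00000019966.18, chr10:100015630-100100416, plus strand). It had 92.3, 76.2 and 92.0 CPM in P replicates 1 to 3 and 55.6, 56.9 and 57.1 CPM in AxR replicates 1 to 3. P replicate 2 was the lowest P library and still lay above all AxR libraries. The mean fell from 86.8 ± 9.24 to 56.5 ± 0.799 CPM (SD, n = 3 per line), to 65.2% of the P level. Its log2 fold change was -0.62 (standard error 0.071, edgeR adjusted p = 2.34e-06), while the 670 genes of its chromosome had a median of 0.25. Its 20 nearest tested genes had a median of 0.074, with 6 called higher and 9 called lower, and 2 of them were as low as Kitl or lower, down to -6.47. Both lines thus held RNA of the KIT ligand and no detected RNA of KIT.

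The order of the levels per kb differed between the lines. In P cells it was Pdgfb, Pdgfa, Kitl, Pdgfc and Pdgfra, where the libraries of Pdgfa and Kitl overlapped, as did those of Pdgfc and Pdgfra. Kitl, at 14.7 ± 1.56 CPM per kb (SD, n = 3), was 6.26 times Pdgfc. In AxR cells the order was Pdgfa, Pdgfb, Kitl, Pdgfc and Pdgfra, with overlap only between Kitl at 9.57 ± 0.135 and Pdgfc, and Pdgfc was 9.27 times Pdgfra. Within libraries, the log2 ratio of Pdgfc to Pdgfra in CPM was -0.90 in P and 2.18 in AxR cells, a difference of 3.07. The log2 ratio of Pdgfa to Pdgfra went from 1.06 to 1.83. Of the 10 pairs among the 5 tested genes, 9 had ratios that did not overlap between the lines (exact permutation p of 0.1 each, 0.111 after adjustment over the 10 pairs). These pairs share their genes, and 68.3% of all genes tested did not overlap between the lines by themselves. The share over all pairs of genes was not computed, so this count cannot be called particular to the members. The ratio of Pdgfb to Kitl overlapped between the lines, with a difference of -0.099 (exact permutation p of 0.8).

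**Figure D4:**
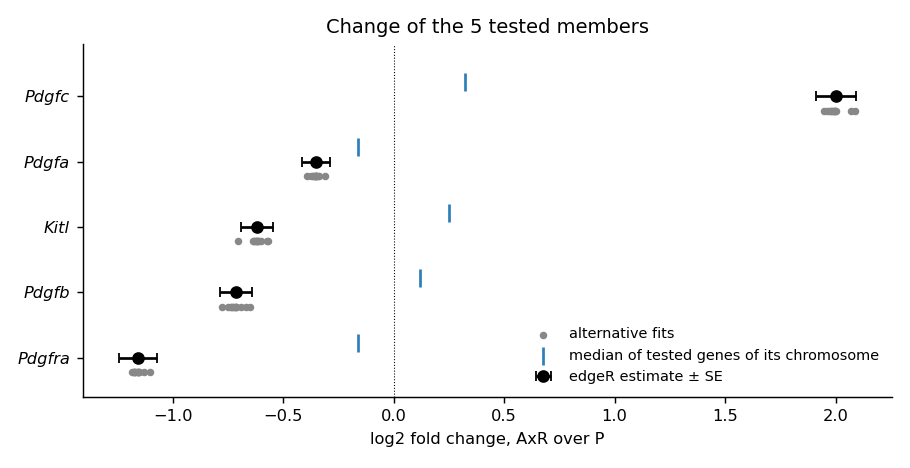
Log2 fold change, AxR over P, of the 5 tested members with standard errors, the values under alternative fits (grey) and the median of the tested genes of its chromosome (blue). Pdgfc lies at 2.00 and Pdgfra at -1.15, and for each gene the alternatives stay on the same side of 0.

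By library pattern, the genes closest to Pdgfc over the 6 libraries were Thbs1, Lmo7 and Arfgef3 (Euclidean distance of centred log2 CPM 0.154, 0.186 and 0.216). Those closest to Pdgfra were S1pr2, Zdhhc8 and Prkg2 (0.0774, 0.116 and 0.125), of which Prkg2 is also on chromosome 5. Pdgfa was closest to Ifnar2, Srsf11 and Gm5898 (0.0274, 0.0452 and 0.0480), Pdgfb to Tmem170, Gm38699 and Polb (0.0844, 0.104 and 0.108), and Kitl to Nek7, Arl5b and Cdc73 (0.0951, 0.103 and 0.107). With 2 lines, the distance takes in the change between them as well as the spread of their libraries.

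Receptors and ligands related to the members, from the same receptor class and the VEGF receptors, were tested for 4 of 8 genes. Of these 1 was higher, 2 were lower and Flt3l was not called (log2 fold change 0.028, edgeR adjusted p = 0.885), with a median of -0.31. Csf1, the ligand of the CSF1 receptor, rose from 434 to 736 CPM, and its other ligand gene Il34 fell by 0.65 on the log2 scale. Flt1, the gene of VEGF receptor 1, went from 54.7 to 4.96 CPM, a log2 fold change of -3.46. Csf1r, Flt3 and Flt4 had too few counts to be tested, with summed counts of 8 and 10, 2 and 1, and 2 and 0 in P and AxR cells. No receptor gene of this list other than Flt1 could therefore be compared between the lines.

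Genes that process or bind PDGFs and stem cell factor had 13 of 16 tested, with 4 higher, 6 lower and 3 not called, and a median log2 fold change of 0.029. Among proteases that can activate PDGF-C, Plat, the gene of tissue plasminogen activator, rose from 2.96 to 5.69 CPM (log2 fold change 0.94), and St14, the gene of matriptase, had a log2 fold change of 0.030 that did not pass the test. Plau, the gene of urokinase, which can activate PDGF-D, fell from 149 to 51.0 CPM (-1.55). Of the proprotein convertases, Pcsk6 rose from 5.48 to 28.1 CPM (2.36), and Pcsk7 fell by 0.69 on the log2 scale. Furin, at the highest level of these, fell from 122 to 92.7 CPM (-0.40), and Pcsk5 was at 0 in all libraries. Thbs1, whose product thrombospondin binds PDGF-B, rose from 207 to 863 CPM (2.06). Mmp9, a protease that releases stem cell factor, fell from 82.7 to 22.7 CPM (-1.87), and the co-receptor gene Nrp1 fell from 49.3 to 22.6 CPM (-1.13).

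Adaptors and effectors that the receptors recruit had 31 of 32 tested, with 12 higher, 16 lower and 3 not called, and a median of -0.15. Stat5a rose from 7.69 to 22.6 CPM (log2 fold change 1.55), and Fyn and Grb7 rose by 0.84 and 0.59. Pik3cd, a catalytic subunit of PI3 kinase, fell from 4.24 to 0.909 CPM (-2.23), Src fell from 196 to 95.7 CPM (-1.03), and Plcg1 and Lyn fell by 0.68 and 0.67. The Src family members thus went in both directions. Brakes of receptor signalling had 22 of 23 tested, with 9 higher, 9 lower and 4 not called, and a median of 0.080. The phosphatase gene Ptpn6 rose from 3.95 to 15.3 CPM (1.95) and Spry1, Socs6 and Dok1 rose by 0.98, 0.74 and 0.73, while Ptpn12 fell from 171 to 86.9 CPM (-0.98) and Cbl, Ptpn1 and Socs3 fell by 0.71, 0.60 and 0.58. Genes known to respond to growth factors had 24 of 25 tested, with 5 higher, 13 lower and 6 not called, and a median of -0.22. Fosb, Fos, Egr1 and Srf, the gene of serum response factor, rose by 1.31, 0.83, 0.64 and 0.50 on the log2 scale. Has2, a hyaluronan synthase gene, fell from 73.7 to 15.1 CPM (-2.29), Fosl1 fell from 223 to 71.0 CPM (-1.65), and Dusp5 and Etv4 fell by 1.20 and 0.99. All these calls used edgeR's adjusted p over all genes tested, and no list as a whole was tested. Beside the counts of every list, 32.8% of all genes tested were called higher and 30.8% lower.

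**Figure D5:**
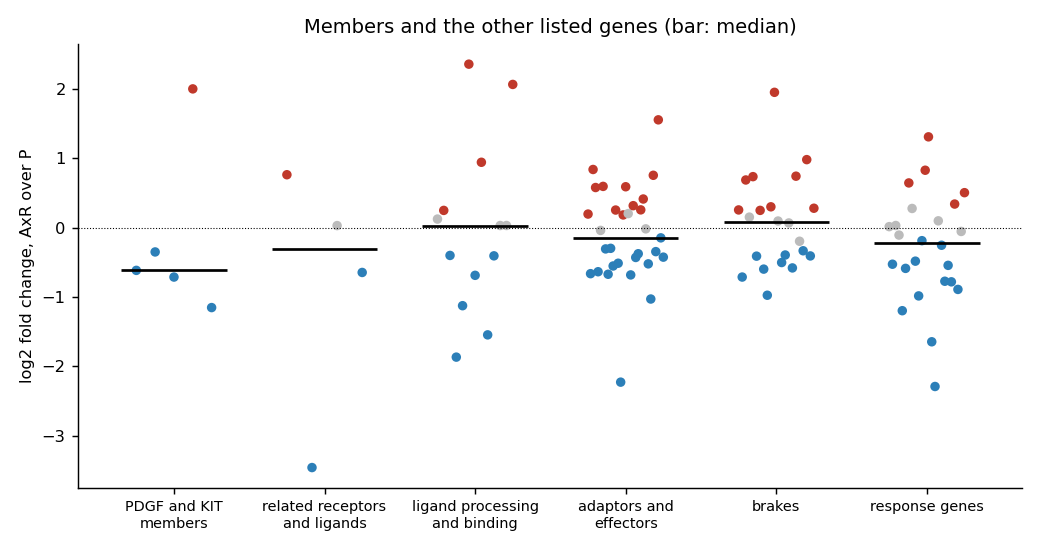
Log2 fold change, AxR over P, of the tested genes of the members and of the 5 lists around them; red and blue points were called higher and lower at an adjusted p under 0.05, grey points were not called, and the line in each column is its median. Each list has genes called in both directions.

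Markers of fibroblasts, pericytes and mast cells, which carry these receptors, were at low levels. Of 11 fibroblast and pericyte markers, only Mcam could be tested, with 8.59 CPM in P and 8.18 in AxR cells and no call. Col3a1 and Lum were at 0 in all libraries, and the summed level of the list was 9.18 to 9.53 CPM in P and 8.53 to 10.03 CPM in AxR libraries. Of 7 mast cell markers, 6 were at 0 in all libraries, with Hdc the exception, and the list summed to at most 0.0652 CPM in P and 0.127 to 0.228 CPM in AxR libraries. The 6 endothelial markers summed to 0.425 to 0.808 CPM in P and 0.445 to 0.512 CPM in AxR libraries, and the 5 lung epithelial markers to 0.0608 to 0.346 and 0.381 to 0.626 CPM, with none tested. Of 6 leukocyte markers, Cd68 and Cd14 were tested and both were higher, Tyrobp and Fcer1g were at 0, and the list summed to 6.14 to 8.08 CPM in P and 16.3 to 17.0 CPM in AxR libraries. Of 8 mammary epithelial markers, 7 were tested, of which 6 were higher and Krt19 was lower, and the sum was 1887 to 2107 CPM in P and 3004 to 3184 CPM in AxR libraries. Of all genes tested, 32.8% were called higher and 30.8% lower. The part of these marker changes in the members' values was not tested.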

How the data were processed

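RNA was sequenced from 3 libraries each of 4T1 P and AxR cells, made with poly(A) selection and a stranded kit. The authors deposited estimated counts per gene from RSEM 1.3.1, before any filter or normalization. Per the labels' processing notes and the paper's methods, reads passed through FastQC 0.11.5 and were aligned by STAR 2.6.0a to GRCm38, annotated by GENCODE M16. RSEM divides reads shared by several genes, so that 10.3% to 10.7% of a library's values had decimals. Gene symbols, positions and exon lengths came from GENCODE M21 of the same build, which held 53274 of the 53465 identifiers. Promoter windows came from the RefSeq table for GRCm38.p6, and those of 6 of the 8 members were used. The search skipped members on chromosome 18, and so Pdgfrb. Windows that overlap annotated exons are not printed.

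Estimated counts were rounded, filtered with filterByExpr, normalized by upper quartile (factors 0.966 to 1.02) and compared in edgeR 4.0.16 (R 4.3.3) by a robust quasi-likelihood F test between lines without covariates. Benjamini-Hochberg adjustment covered all 13550 tested genes, and genes under 0.05 were called. The biological coefficient of variation was 0.0595. Exact permutation tests of shares and ratios were 2-sided. The fit was tested on simulated data. Alternatives were TMM, library size only, DESeq2 1.42.0, limma-voom (limma 3.58.1), other filters, a replicate block, each library left out in turn, a fold change threshold and the longest transcript as length.

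The members and gene lists were chosen with earlier results of these data known. Named genes were the members, all related receptors and ligands, up to 4 called genes per direction and list with the largest change, the 3 genes nearest in pattern to each called member, and genes around Pdgfra. St14, Furin, Pcsk5, 6330403L08Rik, Gm16000 and the marker genes named were chosen after their values were seen. A gene that the rule for named genes takes in is not reported here.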

Additional observations from a re-analysis of the deposited data

How the results depend on the processing

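The log2 fold changes of Pdgfa, Pdgfb, Pdgfc, Pdgfra and Kitl kept their direction and an adjusted p under 0.05 under TMM, library size only, DESeq2, limma-voom, both other filters, the replicate block and each library left out. Leaving out 1 library gave -0.39 to -0.31 for Pdgfa, -0.77 to -0.65 for Pdgfb, 1.95 to 2.09 for Pdgfc, -1.18 to -1.10 for Pdgfra and -0.70 to -0.57 for Kitl. Their highest adjusted p over all alternatives were 0.00299, 1.37e-05, 6.92e-09, 6.72e-07 and 6.20e-05. Without a filter on low counts 2 members were higher, since Pdgfrb then entered the fit through its AxR counts alone. In that fit 4761 of all 24736 genes were higher. Under the added rule of a change of 1 or more on the log2 scale, 1 member was higher and 1 lower. Of all genes tested, 12.7% passed that rule in either direction. The counts higher and lower under it were 0 and 1 for related receptors and ligands, and 2 and 3 for processing and binding. They were 1 and 2 for adaptors and effectors, 1 and 0 for brakes, 1 and 3 for response genes, and 1083 and 640 for all genes. With the longest transcript as length, Pdgfc was at position 3 and Kitl at position 4 in AxR cells, and the mean share of Pdgfc was 6.54% in P and 28.8% in AxR cells. The difference in that share was 21.7 to 23.5 percentage points with 1 library left out. These checks of the share were chosen after seeing the data.

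Same-numbered P and AxR libraries shared little deviation from their line means, with correlations of -0.021, -0.0061 and -0.022. These values cannot tell whether libraries of the same number were handled together. The replicate block gave 4304 genes higher and 4023 lower, and log2 fold changes of -0.35, -0.71, 2.00, -1.16 and -0.61 for Pdgfa, Pdgfb, Pdgfc, Pdgfra and Kitl. No scaling moved the median of all genes by more than 0.021. Depth limits what can be said of Pdgfd, Kit and Pdgfrb, for which 3 counts over the libraries of a line were taken as the floor.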
